A study of Mus musculus with 12 samples.

Results

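The 32 genes described here give excitatory projection neurons of the cerebral cortex their identity, or mark the layer in which such a neuron lies. They were taken by name from a list of layer and excitatory identity genes. The rule uses no measured value, but the list was drawn up with earlier results of these data known. All 32 were among the 14801 genes listed in these data, and all 32 passed the filter on low values, so all 32 are among the 13663 genes tested. By role they fall into 2 vesicular glutamate transporters, 4 helix-loop-helix factors of neuronal differentiation, 5 genes of the upper layers, 11 genes of the deep layers and 10 genes used more broadly by cortical neurons. Many of them are also made outside projection neurons, for example Bcl11b in inhibitory neurons and Nfia in astrocytes.

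The 12 libraries come from cells of the cerebral cortex of wild-type mouse fetuses, taken on gestational day 17.5 and grown as primary cultures. The 6 T3 cultures received 10 nM triiodothyronine (T3), the active thyroid hormone, for 24 h before harvest, and the 6 cultures without T3 were kept in parallel for the same time. Both groups had grown for 9 days and had then spent 24 h in medium lacking the B27 supplement. The cortices of each of 6 fetuses, called mouse 1 to mouse 6, supplied 1 culture of each group, so the comparison was made within mouse. The strain and the sex of the fetuses are not given in the labels. The cultures are a mixture of neurons and glia and have no layers in space, so a layer gene here marks a class of neuron and not a position. In such bulk samples, fewer cells of a type and less RNA per cell cannot be told apart.

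Projection neurons of the cortex are glutamatergic and are born from progenitors lining the ventricle, the deep layers first and the upper layers later. Helix-loop-helix factors such as Neurod1 drive the step from progenitor to neuron. Afterwards, factors that repress each other divide the neurons by target: Fezf2 and Bcl11b act in neurons that project to the brainstem and spinal cord, Tbr1 in neurons that project to the thalamus, and Cux1, Cux2 and Rorb mark the upper layers. The thyroid hormone receptors are transcription factors that bind DNA, and a lack of the hormone in fetal life is known to disturb the layering of the rodent cortex.

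Values are CPM, that is, reads per gene relative to library size, with TMM as a correction for composition. A figure after ± is an SD over the 6 cultures of a group. The libraries held 7460586 to 10837895 reads with T3 and 5272092 to 8136928 reads without T3. In each mouse the T3 library was the deeper one, and the means were 9273960 reads with T3 and 7008618 without T3. One library stood apart, that of mouse 4 without T3: 52 genes lay over 4-fold above all other libraries in it, they made up 0.363% of its reads, and 0 of them are layer identity genes. Each gene of the list was detected in each of the 12 libraries. Neuronal and glial markers were both present: the summed level of 9 general neuronal markers was 7904 to 9705 CPM with T3 and 8356 to 11245 CPM without T3, and the summed level of 9 astrocyte markers was 1254 to 3275 CPM with T3 and 838 to 2799 CPM without T3. Hr, a direct target gene of the hormone receptor, was higher with T3 by 3.00 on the log2 scale, the largest rise of all tested genes. It came from a list of 5 genes taken as a check of T3 action. Of the 5, 3 passed as higher, against 3.37% of all tested genes. The other 2 did not pass and had changes below 0, the lowest being -0.094.

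Most of the layer identity genes did not pass the test for an effect of T3. Emx1 and Tshz3 rose, and Slc17a6, Bhlhe22, Fezf2 and Etv1 fell, so 2 genes rose, 4 fell and 26 of 32 did not pass the test (limma on log2 of CPM + 0.5 with the mouse as a block, Benjamini-Hochberg adjusted p under 0.05). Over all tested genes, 5.52% passed, 3.37% as higher and 2.14% as lower. The median log2 change, T3 minus no T3, was -0.055 over the 32 genes, against 0.00 over all tested genes. Of the 32, 14 had a change above 0 and 18 a change below 0. For no gene of the list were the ranges of the groups apart, which held for 1.68% of all tested genes.

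The size of an undetected change was bounded for the other genes. The 26 genes that did not pass had log2 changes between -0.21 and 0.17, and all 26 of their 95% intervals lay within 0.5 of zero, the lowest bound being -0.41 for Foxp2 and the highest 0.32 for Neurod2. The direction was shared by 6 of 6 mice for 5 genes of the list, Slc17a6, Bhlhe22, Fezf2 and Rorb being lower and Cux1 higher. Of all tested genes 10.8% had one direction in 6 of 6 mice, 4.98% as lower and 5.79% as higher. An unadjusted p under 0.05 was found for 15 of the 32 genes, 5 higher and 10 lower. In either direction, 17.5% of all tested genes were under that p. Shares by direction were not worked out for it, and no test was made over the list.

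The 6 calls rest on comparing cultures of the same mouse. Without the mouse as a block, 0 of the 32 genes passed, and the adjusted p of the 6 genes named above lay between 0.11 and 0.705. At an unadjusted p under 0.05 that fit had 2 genes higher and 3 lower. It called 1.3% of all tested genes, 0.915% as higher and 0.388% as lower. DESeq2, with the block, called 1 gene of the list higher and 2 lower, and 3.89% of all tested genes, 2.28% as higher and 1.6% as lower. Single mice also moved the counts: the genes that rose numbered 3, 2, 0, 1, 0 and 1 when mouse 1, 2, 3, 4, 5 or 6 was left out, and those that fell numbered 3, 1, 1, 2, 1 and 0, while these fits called 3.35% to 6.23% of all genes. The count of 0 lower without mouse 6 had 6 genes lower at an unadjusted p under 0.05, and the counts of 0 higher without mouse 3 or 5 had 3 each. The share of all tested genes under that p was worked out for the main fit only, at 17.5%. The unadjusted counts of the other fits therefore have no matching share beside them.

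**Figure D1:**
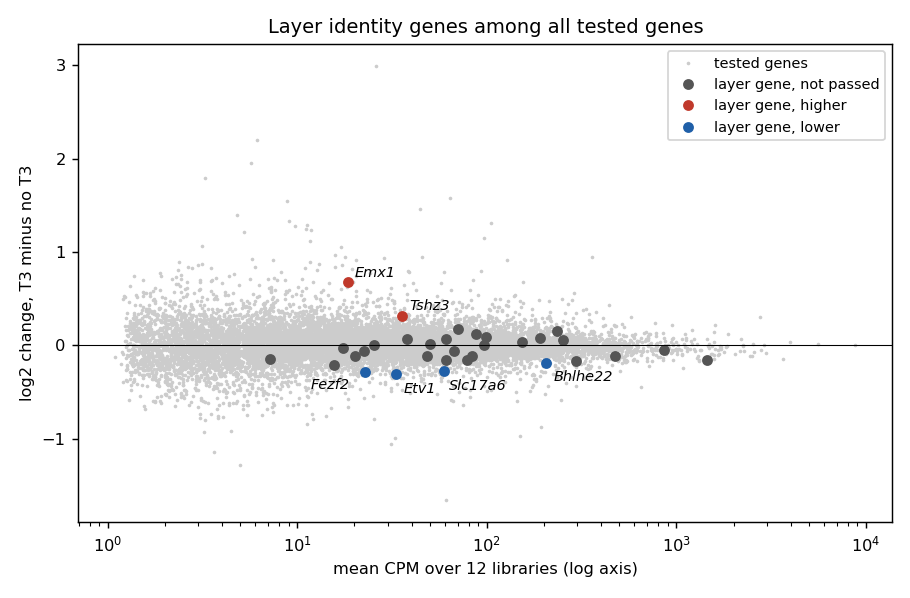
Log2 change with T3 (vertical axis, T3 minus no T3) against mean CPM over 12 libraries (horizontal log axis) for all 13663 tested genes (grey) and the 32 layer identity genes (coloured by the result of the test). The layer genes lie close to zero over the whole range of levels, with Emx1, at 0.68, the one farthest from it.

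**Figure D2:**
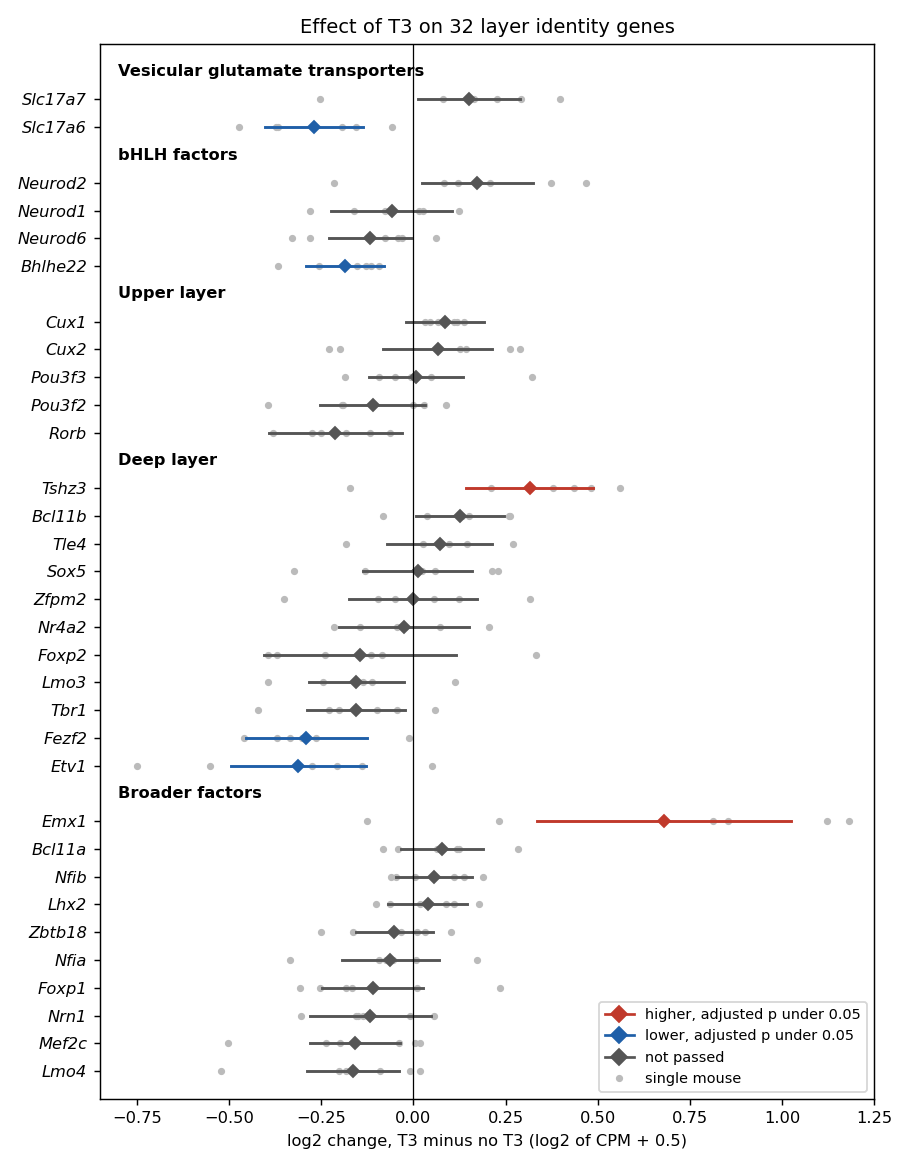
Log2 change with T3 for each of the 32 genes, grouped by role. Diamonds are the fitted change with its 95% interval, small grey points are the 6 single mice, and colour marks the 2 genes that rose and the 4 that fell.

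Promoter sequence is shown for the called genes with the smallest p in each direction that have an entry, and for Mef2c, the one gene of the list whose promoter held the half-site letters bound by thyroid hormone receptors. The sequences are RefSeq's for the build GRCm38.p6, give the 250 bases before a start site and read 5′ to 3′ along the gene's strand. In the first 4, capitals mark CANNTG, the E-box letters bound by helix-loop-helix factors, which read the same on both strands. In Mef2c, capitals mark AGGTCA or its reverse complement.
Emx1, at chr6:85187681-85187930 on the plus strand: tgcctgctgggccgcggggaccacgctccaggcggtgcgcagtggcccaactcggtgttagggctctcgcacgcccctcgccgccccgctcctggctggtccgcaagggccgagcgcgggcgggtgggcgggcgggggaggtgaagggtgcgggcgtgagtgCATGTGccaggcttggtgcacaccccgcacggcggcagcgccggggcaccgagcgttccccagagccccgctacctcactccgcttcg
Tshz3, at chr7:36697868-36698117 on the plus strand: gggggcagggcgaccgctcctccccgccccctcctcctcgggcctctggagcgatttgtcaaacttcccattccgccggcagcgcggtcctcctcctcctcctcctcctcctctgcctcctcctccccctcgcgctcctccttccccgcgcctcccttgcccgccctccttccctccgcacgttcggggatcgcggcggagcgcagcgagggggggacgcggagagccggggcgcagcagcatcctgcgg
Slc17a6, window 1, at chr7:51621580-51621829 on the plus strand: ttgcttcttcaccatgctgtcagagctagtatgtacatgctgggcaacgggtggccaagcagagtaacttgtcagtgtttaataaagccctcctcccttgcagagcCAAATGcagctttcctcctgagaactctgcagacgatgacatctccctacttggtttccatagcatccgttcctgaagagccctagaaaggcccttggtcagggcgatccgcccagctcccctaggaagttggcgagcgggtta
Fezf2, at chr14:12345866-12346115 on the minus strand: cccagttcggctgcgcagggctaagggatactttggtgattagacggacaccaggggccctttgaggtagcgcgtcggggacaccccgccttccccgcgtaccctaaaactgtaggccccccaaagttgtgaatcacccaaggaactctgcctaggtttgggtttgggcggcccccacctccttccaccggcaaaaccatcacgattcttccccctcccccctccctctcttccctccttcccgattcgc
Mef2c, window 3, at chr13:83573357-83573606 on the plus strand: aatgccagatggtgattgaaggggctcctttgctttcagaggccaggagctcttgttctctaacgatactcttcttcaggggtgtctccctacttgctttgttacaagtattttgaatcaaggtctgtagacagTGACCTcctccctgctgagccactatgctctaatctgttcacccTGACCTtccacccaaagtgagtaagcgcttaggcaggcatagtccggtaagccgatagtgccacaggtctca

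The windows shown of Emx1 and Slc17a6 held 1 E-box each, while those of Tshz3 and Fezf2 held 0. Promoters were found for 27 of the 32 genes, in 43 windows, some genes having several starts. AGGTCA was searched on both strands and was present in 1 of the 27 genes, Mef2c, with 2 matches in the window shown, against 15.8% of 27025 genes with a window. A pair of these half-sites with any 4 bases between them, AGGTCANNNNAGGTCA, was in 0 of the 27 genes and in 0.0148% of all genes. CANNTG was in 18 of the 27 genes and in 69.3% of all genes. No match says only that these letters are not in the window.

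The glutamate transporters Slc17a7 and Slc17a6 load glutamate into synaptic vesicles, and cortical neurons are known to use more of the first as they mature. Slc17a6 (ENSMUSG00000030500, chromosome 7 from 51622006 to 51671119 on GRCm38) had 42.5, 41.3, 51.4, 61.5, 51.3 and 72.5 CPM with T3 in mice 1 to 6, against 47.4, 53.6, 58.9, 64.0, 66.3 and 101 CPM without T3. It was lower with T3 in each of the 6 mice, while the ranges of the groups overlap. Slc17a6 fell, with a log2 change of -0.27 (SE 0.063, 95% interval -0.40 to -0.14, limma adjusted p = 0.0128), which is 0.829-fold. Mouse 6 was the highest in both groups, and without mouse 6 the adjusted p was 0.0678.

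Slc17a7 had 206, 265, 298, 265, 272 and 166 CPM with T3, against 246, 251, 266, 226, 207 and 136 CPM without T3. Mouse 1 was lower with T3 and the other 5 were higher. The log2 change of 0.15 (95% interval 0.01 to 0.29) did not pass, with a limma adjusted p of 0.234, and it passed without mouse 1 at 0.0104. The ratio of Slc17a7 to Slc17a6, in CPM, was 4.85, 6.42, 5.80, 4.31, 5.31 and 2.30 with T3 and 5.18, 4.67, 4.51, 3.53, 3.12 and 1.35 without T3. This ratio was higher with T3 in 5 of 6 mice and is a description only.

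**Figure D3:**
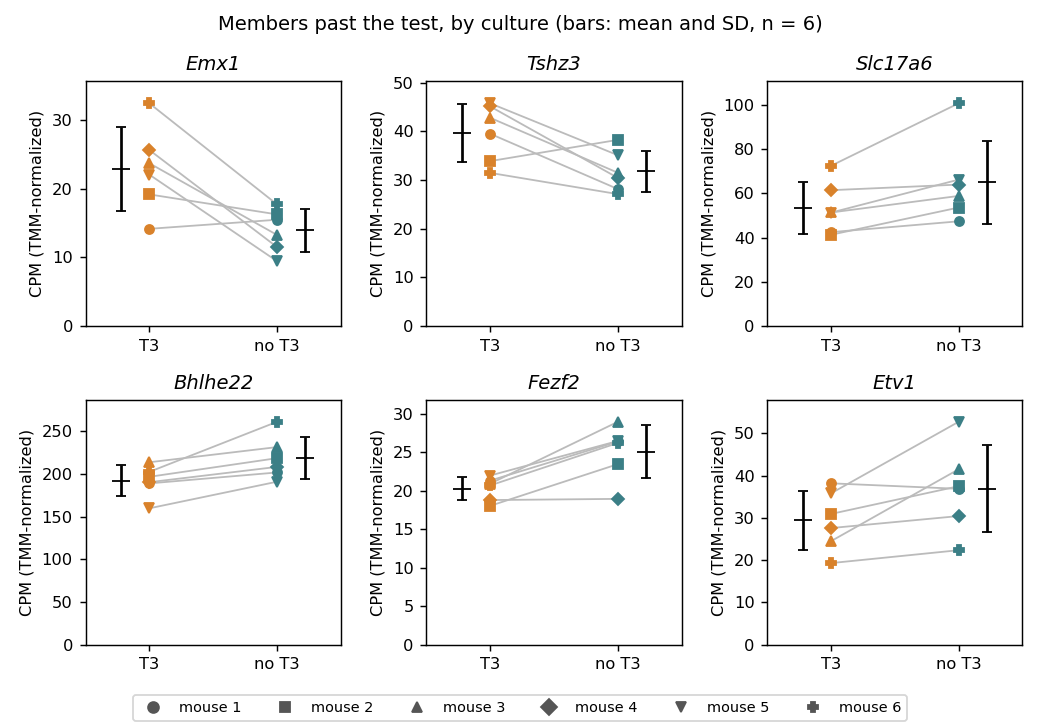
CPM of the 6 genes that passed the test, in each T3 culture (left) and each culture without T3 (right), with grey lines joining the cultures of a mouse and bars for the mean and SD of 6 cultures. Emx1 and Tshz3 slope down from T3 to no T3 in 5 of 6 mice, while Slc17a6, Bhlhe22 and Fezf2 slope up in all 6 and Etv1 in 5.

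Of the helix-loop-helix factors, Bhlhe22 fell and the 3 Neurod genes did not pass. Bhlhe22 (ENSMUSG00000025128, chromosome 3 from 18054174 to 18057517), a repressor that shapes the areas of the cortex and its projections to the spinal cord, had 189, 197, 214, 190.2, 159.6 and 202 CPM with T3, against 202, 218, 231, 208, 191 and 261 CPM without T3. The T3 culture was the lower one in 6 of 6 mice. The log2 change was -0.19 (SE 0.050, 95% interval -0.29 to -0.08, limma adjusted p = 0.0331), or 0.879-fold. The call was lost when any one of mice 2 to 6 was left out, with adjusted p between 0.0603 and 0.135.

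The Neurod genes act in sequence as a cortical neuron forms and matures. Neurod2 averaged 74.8 ± 15.3 CPM with T3 and 66.2 ± 13.1 CPM without T3, higher in 5 of 6 mice, with a limma adjusted p of 0.204 that became 0.0193 without mouse 1. Neurod6 averaged 452 ± 36.8 CPM with T3 and 491 ± 52.4 CPM without T3 and was lower in 5 of 6 mice (log2 change -0.12, adjusted p = 0.258 by limma). Neurod1 averaged 21.8 ± 5.47 CPM with T3 and 23.2 ± 8.31 CPM without T3, and mouse 6 was the highest in both groups at 32.3 and 39.4 CPM. These 3 relatives thus showed values on both sides of zero.

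Of the 5 upper-layer genes, 0 passed limma's test, and 0 passed edgeR's or DESeq2's. At an unadjusted p under 0.05 there was 1 by limma, Rorb, 1 by edgeR and 0 by DESeq2. Over all tested genes, limma called 5.52%, edgeR 5.72% and DESeq2 3.89%, and 17.5% were under the unadjusted p by limma. Beside these shares, counts of 0 and 1 among 5 genes do not set the upper layers apart. Cux1, a homeodomain factor that promotes branching of upper-layer dendrites, was higher with T3 in 6 of 6 mice by a small amount, with 81.2, 95.9, 100.04, 106.5, 93.8 and 130.5 CPM with T3 and 78.6, 88.8, 95.4, 96.7, 86.4 and 127.5 CPM without T3 (log2 change 0.09, 95% interval -0.02 to 0.19, limma adjusted p = 0.417). Its relative Cux2 averaged 62.4 ± 11.8 CPM with T3 and 59.3 ± 9.23 CPM without T3 and was higher in 4 of 6 mice. Rorb, a nuclear receptor of the neurons that receive thalamic input, had the opposite sign.

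Rorb had 14.9, 14.4, 11.8, 12.02, 22.8 and 10.4 CPM with T3, against 15.6, 17.3, 15.5, 14.7, 25.9 and 11.3 CPM without T3. It was lower in 6 of 6 mice, and mouse 5 was the highest in both groups. The log2 change of -0.21 (95% interval -0.39 to -0.03) had a limma adjusted p of 0.191. The POU factors Pou3f2 and Pou3f3, which act together in the making of upper-layer neurons, averaged 46.1 ± 4.45 and 97.0 ± 4.17 CPM with T3, against 50.4 ± 10.3 and 97.1 ± 12.1 CPM without T3.

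Among the 11 deep-layer genes, Tshz3 rose, Fezf2 and Etv1 fell, and 8 did not pass. Fezf2 (ENSMUSG00000021743, chromosome 14 from 12342094 to 12348189), the zinc finger factor that specifies neurons projecting to the spinal cord, had 21.3, 18.02, 20.9, 18.8, 21.96 and 20.7 CPM with T3, against 26.4, 23.4, 28.9, 18.9, 26.4 and 26.2 CPM without T3. The T3 cultures lay in a narrow band, and mouse 4 was nearly level between its cultures. Fezf2 changed by -0.29 on the log2 scale (SE 0.078, 95% interval -0.45 to -0.13, limma adjusted p = 0.0317), or 0.818-fold, lower in 6 of 6 mice. DESeq2 gave an adjusted p of 0.118, and leaving out mouse 1, 2, 3, 5 or 6 gave limma values of 0.0502 to 0.15.

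Etv1 (ENSMUSG00000004151, chromosome 12 from 38779380 to 38870484), an ETS factor of layer V neurons, had 38.2, 30.9, 24.5, 27.6, 35.8 and 19.3 CPM with T3, against 36.9, 37.5, 41.5, 30.4, 52.8 and 22.3 CPM without T3. It was lower with T3 in 5 of 6 mice and slightly higher in mouse 1. The log2 change was -0.31 (SE 0.087, 95% interval -0.49 to -0.13, limma adjusted p = 0.0399), or 0.805-fold. The call was lost with DESeq2, at an adjusted p of 0.0771, and without mouse 2, 3, 4, 5 or 6, at 0.0509 to 0.222.

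Tshz3 (ENSMUSG00000021217, chromosome 7 from 36698118 to 36773553), a zinc finger factor of deep-layer neurons that is known for its part in their synapses with the striatum, had 39.5, 33.9, 42.8, 45.1, 45.7 and 31.5 CPM with T3, against 28.1, 38.2, 31.5, 30.4, 35.1 and 27.1 CPM without T3. Mouse 2 alone was lower with T3. The log2 change was 0.32 (SE 0.083, 95% interval 0.14 to 0.49, limma adjusted p = 0.0264), or 1.24-fold. The call was lost with DESeq2, at 0.065, and without mouse 1, 3, 4 or 5, at 0.0571 to 0.118.

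The other leading factors of the deep layers did not pass. Tbr1, the T-box factor of neurons projecting to the thalamus, averaged 57.2 ± 5.83 CPM with T3 and 63.9 ± 7.44 CPM without T3 and was lower in 5 of 6 mice (log2 change -0.16, limma adjusted p = 0.194). Bcl11b, the zinc finger factor downstream of Fezf2, averaged 92.1 ± 18.5 CPM with T3 and 84.0 ± 13.7 CPM without T3 and was higher in 5 of 6 mice (log2 change 0.13, limma adjusted p = 0.251). Fezf2 and Bcl11b, which lie in one pathway, thus had log2 changes of opposite sign. The 95% interval of Bcl11b, 0.01 to 0.25, was above 0, but its change did not pass after adjustment.

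Sox5, which times the production of deep-layer neurons, and Zfpm2, a cofactor of zinc finger proteins, had log2 changes of 0.01 and 0.00. Foxp2, a forkhead factor of layer VI neurons, had 6.76 ± 2.52 CPM with T3 and 7.50 ± 3.07 CPM without T3 and was lower in 5 of 6 mice. Nr4a2, an orphan nuclear receptor of subplate and deepest-layer neurons, averaged 17.5 ± 3.97 CPM with T3 and 17.5 ± 2.10 CPM without T3. Tle4, a corepressor of layer VI neurons, averaged 38.9 ± 7.88 CPM with T3 and 36.9 ± 7.17 CPM without T3, and Lmo3, a LIM-only cofactor, averaged 74.5 ± 13.6 CPM with T3 and 82.4 ± 9.29 CPM without T3. An RNA on the other strand covers 9.25% of the exons of Sox5, and the library kit does not mark strand.

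The upper-layer genes, set against the deep-layer genes, had no direction shared by the 6 mice. The mean log2 change was -0.03 over the 5 upper-layer genes and -0.05 over the 11 deep-layer genes. The upper mean minus the deep mean was -0.086, -0.042, 0.18, 0.036, 0.15 and -0.12 in mice 1 to 6. It was above 0 in mice 3, 4 and 5 and below 0 in mice 1, 2 and 6, with a mean of 0.018 and an SD of 0.12 over 6 mice. Because members are not replicates and were chosen with results known, no p is given for this score. The sign of so small a mean is not fixed: it was -0.014 to 0.046 when single mice were left out, 0.075 with narrower lists, and -0.020 with a wider upper list.

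**Figure D4:**
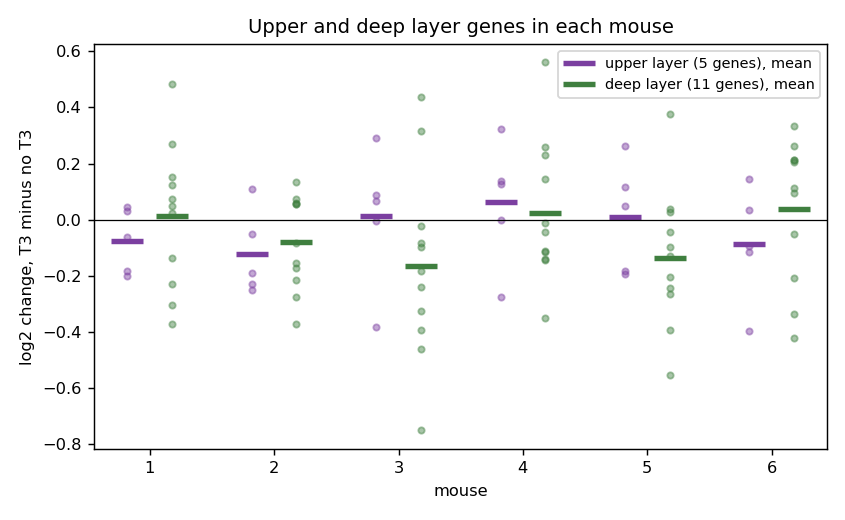
Log2 change with T3 in each mouse for the 5 upper-layer genes and the 11 deep-layer genes (points), with the mean of each group as a thick bar. The upper bar lies above the deep bar in mice 3, 4 and 5 and below it in mice 1, 2 and 6.

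Of the 10 genes used broadly by cortical neurons, Emx1 rose and 9 did not pass. Emx1 (ENSMUSG00000033726, chromosome 6 from 85187438 to 85204462), a homeodomain factor of the cortical primordium that is kept in its excitatory neurons and also found in its progenitors and astrocytes, had 14.2, 19.2, 23.7, 25.6, 22.1 and 32.4 CPM with T3, against 15.5, 16.3, 13.3, 11.5, 9.45 and 17.7 CPM without T3. The T3 culture was higher in mice 2 to 6, and mouse 1 was slightly lower. The log2 change was 0.68 (SE 0.157, 95% interval 0.33 to 1.02, limma adjusted p = 0.0276), or 1.6-fold, which is the largest change in the list. It rests on 62 to 328 reads a library, and the call was lost without mouse 3, 5 or 6, at adjusted p of 0.0894 to 0.114.

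The 2 genes nearest to the threshold were Lmo4 and Mef2c. Lmo4, a LIM-only cofactor that helps to set cortical areas, had 237 to 318 CPM with T3 (median 287.5) and 279 to 341 CPM without T3 (median 310.3), and was lower in 5 of 6 mice (log2 change -0.16, limma adjusted p = 0.131). Mef2c, a MADS-box factor of excitatory synapses, had 1026 to 1506 CPM with T3 (median 1377) and 1208 to 2134 CPM without T3 (median 1438), and was lower in 4 of 6 mice (log2 change -0.16, adjusted p = 0.139 by limma). The forkhead factor Foxp1 averaged 79.5 ± 7.69 CPM with T3 and 86.3 ± 12.7 CPM without T3, and the zinc finger factor Bcl11a averaged 195 ± 15.9 CPM with T3 and 185 ± 17.7 CPM without T3. These 4 genes did not pass, so their signs are not established.

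Lhx2, Nfib, Nfia, Zbtb18 and Nrn1 did not pass either. Nfia and Nfib, nuclear factor I genes of deep-layer neurons and astrocytes, had log2 changes of -0.06 and 0.06. Nfia in mouse 1 stood at 111 CPM with T3 and 98.1 CPM without T3, the highest value of each group, and mouse 1 also had the highest summed astrocyte marker level of each group, 3275 CPM with T3 and 2799 CPM without T3. Nrn1, a small secreted protein of synapses, averaged 19.3 ± 1.85 CPM with T3 and 20.98 ± 2.63 CPM without T3, and Fars2 overlaps 22.3% of its exons on the other strand, so reads of the 2 genes cannot be told apart there.

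Levels between genes were compared per kilobase (kb) of exon, counting each base in any annotated exon of a gene once. This length was 15.7 kb for Mef2c and 2.15 kb for Neurod6, and the order of the genes depends on it. Undivided, Mef2c averaged 1356 CPM with T3 and 1527 CPM without T3, and Neurod6 452 and 491 CPM. Per kb, Neurod6 was the highest of the 32 at 210.4 CPM per kb with T3 and 229 CPM per kb without T3. Zbtb18, a zinc finger repressor of transcription, followed at 137 and 143 CPM per kb with and without T3, and Mef2c at 86.3 and 97.2. Foxp2 was the lowest, at 0.413 CPM per kb with T3 and 0.459 CPM per kb without T3. Slc17a7 had 45.5 CPM per kb with T3 and 41.1 CPM per kb without T3, and Slc17a6 9.89 CPM per kb with T3 and 12.1 CPM per kb without T3.

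**Figure D5:**
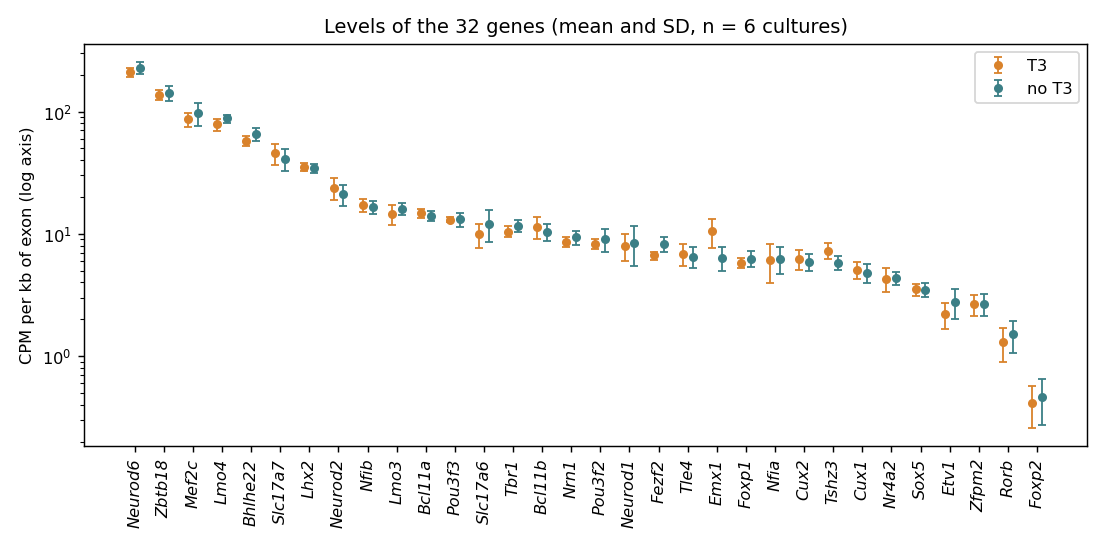
Mean level with SD over 6 cultures, in CPM per kb of exon on a log axis, for each of the 32 genes in T3 cultures (left point) and cultures without T3 (right point). Neurod6 and Zbtb18 are the highest and Foxp2 the lowest, and the 2 points of a gene lie close together beside the distances between genes.

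Levels also varied between the mice of a group. Foxp2 varied most between mice, its highest culture being 2.71 times its lowest with T3 and 2.81 times without T3. It had only 28 to 108 reads a library, so sampling noise adds to this spread. The same ratio for Rorb was 2.19 with T3 and 2.29 without T3. Pou3f3 varied least with T3, at 1.099 times. The library of mouse 6 without T3 held the highest of the 6 values without T3 for 16 of the 32 genes, and the highest of all 12 for 9. The summed level of the 32 genes was 4535 to 5383 CPM with T3 (median 5167) and 4813 to 6471 CPM without T3 (median 5308), and was higher with T3 in 1 of 6 mice.

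Other layer genes, from lists written alongside, changed in both directions as well. Over 14 other upper-layer genes tested the median log2 change was -0.04. Plxnd1, a semaphorin receptor, rose and averaged 168 ± 59.2 CPM with T3 and 114 ± 32.3 CPM without T3 (log2 change 0.54, limma adjusted p = 3.32e-05), and Unc5d, a netrin receptor of migrating upper-layer neurons, fell and averaged 87.9 ± 10.2 CPM with T3 and 122 ± 9.96 CPM without T3 (log2 change -0.48, limma adjusted p = 1.95e-05).

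Of 21 other deep-layer genes tested, 2 rose and 1 fell (median log2 change 0.03). Diaph3, an actin nucleator, rose by 0.48 on the log2 scale (limma adjusted p = 0.00389), Hs3st4, a heparan sulfate sulfotransferase, by 0.34 (limma adjusted p = 0.0297), and Crim1, a transmembrane protein that binds bone morphogenetic proteins, changed by -0.27 (limma adjusted p = 0.00232). The call of Hs3st4 was lost with DESeq2, at 0.162, and without mouse 1, 2, 3 or 6, at 0.066 to 0.0909. Of 31 cofactors of layer factors tested, 1 fell, the corepressor Tle1 at -0.29 (limma adjusted p = 0.0112, and 0.0569 without mouse 6). Beside these counts, 5.52% of all tested genes passed, 3.37% as higher and 2.14% as lower.

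Of 20 genes of excitatory synapse function, 2 rose and 2 fell (median log2 change 0.05), while 5.52% of all tested genes passed. The calcium-dependent kinase genes Camk4 and Camk2a rose by 0.30 and 0.19, with limma adjusted p of 0.00113 and 0.0187, the second being 0.0579 to 0.081 without mouse 3, 4 or 5. The synaptic vesicle gene Sv2b and the glutamate receptor gene Gria1 changed by -0.34 and -0.18, with limma adjusted p of 0.000253 and 0.0192, the second being 0.0569 without mouse 2 and 0.12 without mouse 3. Of 6 tested genes of intermediate progenitors, the cells between progenitor and neuron, Sstr2 and Insm1 rose by 0.47 and 0.41. Their limma adjusted p was 0.000703 and 0.018. The call of Insm1 was lost with DESeq2, at 0.154, and without mouse 3, 4 or 5, at 0.0545 to 0.0784. The median log2 change of these 6 was 0.16, with 4 above 0 and 2 below 0. The lowest, at -0.38, did not pass. Of 5 tested genes of Cajal-Retzius cells, the earliest neurons of the cortical surface, Calb2 alone passed, rising by 0.45 (limma adjusted p = 0.000774). The median log2 change of these 5 was -0.013, with 2 above 0 and 3 below 0. Without the mouse as a block, Unc5d, Crim1, Sstr2 and Camk4 passed and the other genes named from these lists did not. That fit called 1.3% of all tested genes.

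Markers of other cells in the cultures moved beside the layer genes, and their part in the results above was not tested. For the main fit, the share to set beside the counts of all these marker lists is the 5.52% of all tested genes that passed. Without mouse 3, 4, 5 or 6 that share was 3.35%, 4.17%, 3.85% or 3.91%, and without the block it was 1.3%. Of 8 astrocyte markers tested, Slc1a2, Aldh1l1, Gfap and Aqp4 rose, and the summed level of all 9 listed was higher with T3 in 6 of 6 mice. Of these 4, 2 passed without mouse 3, 4 or 5, 1 without mouse 6 and 0 without the mouse as a block, where their adjusted p was 0.734 to 0.943. Of 8 markers of the oligodendrocyte lineage, Gpr17, Olig1 and Olig2 rose, with a summed level of 449 to 565 CPM with T3 and 346 to 500.4 CPM without T3. The call of Olig2 was lost with DESeq2, at 0.106, and without mouse 3, 4, 5 or 6, at 0.0772 to 0.17, and without the block Gpr17 alone passed. Of 7 genes of cell division, Mcm6, Bub1 and Mcm2 fell, with a summed level of 84.5 to 118 CPM with T3 and 108 to 256 CPM without T3. The 256 CPM was in the library of mouse 4 that stood apart, and the next highest sum was 156 CPM. The call of Mcm2 was lost with DESeq2, at 0.102, and without mouse 1, 2 or 3, at 0.056 to 0.0587, that of Bub1 without mouse 4, at 0.0554, and all 3 without the block, at 0.138 to 0.363. Of 9 general neuronal markers, Rbfox3 rose and 8 did not pass (limma adjusted p = 0.0101, and 0.0615 without mouse 3 and 0.0544 without mouse 4), and their summed level was higher with T3 in 1 of 6 mice.

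Of 10 inhibitory neuron markers, Npy rose and Sst fell (log2 changes 0.34 and -0.31, limma adjusted p = 0.0268 and 0.0319). The call of Npy was lost with DESeq2, at 0.0806, and without mouse 3, 4, 5 or 6, at 0.079 to 0.12, and that of Sst without mouse 2, 3 or 5, at 0.0979 to 0.109. Without the block, the adjusted p of Rbfox3, Npy and Sst was 0.218, 0.594 and 0.308. Markers of mural and meningeal cells summed to 43.1 to 157 CPM with T3 and 74.3 to 435 CPM without T3. The 435 CPM was again in the library of mouse 4 without T3, and the next highest sum without T3 was 163 CPM. Of these 6 markers Dcn fell (limma adjusted p = 0.00806, 0.0535 without mouse 3 and 0.49 without the block). Microglia and endothelial markers were low, summing to at most 8.70 and 30.7 CPM with T3 and 10.2 and 32.1 CPM without T3. None of the genes of these lists that were in the data was at 0 in all libraries.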

How the data were processed

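Total RNA of 12 cultures was sequenced as single reads with an unstranded Illumina TruSeq kit, per the labels' protocols. The submitters' processing notes name the build GRCm38 and the tools TopHat, Bowtie, HTSeq, edgeR, FastQC and CASAVA, without versions. The authors deposited a TMM-normalized signal per gene, per the file headers, read here as CPM. In each library 100% of values were multiples of what 1 read is worth (tolerance 0.01 reads), which gave back the reads.

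Main test: limma 3.58.1 (R 4.3.3) on log2(value + 0.5), which understates changes of low genes, blocked by mouse, robust and with a trend, two-sided, Benjamini-Hochberg over 13663 genes kept by filterByExpr of edgeR 4.0.16 (1138 removed). Adjusted p-values are limma's unless another tool is named. The fit was also run on simulated data, whose outcome is not given here and is not used as support for any call. Alternatives were edgeR, DESeq2 1.42.0, limma-voom, no block, RLE scaling, other pseudocounts and filters, and leaving out each mouse.

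The series' design states that each fetus gave both cultures, and same-mouse libraries correlated at 0.237 to 0.638 in their deviations from group means, each best with its partner. Replicate libraries differed by more than sampling noise (chi-square per degree of freedom 2.51 to 19.3). P-values of the fits with the block measure how the T3 minus no T3 difference spreads over fetuses, whose litters are not given in the labels. They do not measure the spread of levels between fetuses. Each fetus gave 1 culture per group, so spread between cultures of a fetus is included and cannot be told apart.

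Members and lists were chosen with earlier results of these data known. All 32 may be named, with the 2 nearest the threshold, and of each other list up to 4 genes that passed, by smallest p. One gene that this rule names is not reported here. Coordinates, exon lengths and overlaps are those of GENCODE mouse release 21.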

Additional observations from a re-analysis of the deposited data

Results flagged for a closer look

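Dixon's criterion was applied to 65 groups of 6 values, each gene of the list in each treatment and the upper-minus-deep difference. In 10 of these groups an end value lay far from the other 5. Chance gives this in about 1 of 20 independent groups. These groups share the same libraries and are not independent, so that rate is no measure for the count of 10. Mouse 6 held 7 of the 10. In its T3 culture, Neurod1 was at 32.3 CPM, with the next value at 22.2, and Lmo3 was at 100.1 CPM, with the next at 76.9. In its culture without T3, Slc17a6 was at 100.8 CPM (next 66.3), Neurod1 at 39.4 CPM (next 22.9), Cux1 at 127.5 CPM (next 96.7), Zbtb18 at 1114 CPM (next 882) and Nr4a2 at 21.6 CPM (next 17.8).

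Mouse 1 held 2, both in its T3 culture: Mef2c was the lowest at 1026 CPM, with the next value at 1365, and Nfia the highest at 111 CPM, with the next at 72.2. Rorb in the T3 culture of mouse 5 was the highest at 22.8 CPM, with the next at 14.9.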

How the results depend on the processing

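Without the mouse as a block, 0 of the 32 genes were called higher and 0 lower, against 2 and 4 in the paired fit, and 178 of all genes were called, against 754. DESeq2 called 1 higher and 2 lower. Leaving out single mice gave 0 to 3 higher, 0 to 3 lower and 459 to 854 of all genes, with the 459 found without mouse 3. The other alternatives, among them edgeR, limma-voom, RLE scaling, pseudocounts and filters, left the 3 counts within 1.5 times. The median change of the 32 genes ran from -0.079 to -0.041. Of 480 values of single genes under 15 alternatives, 433 kept their direction and side of the threshold, 32 lost a call, 2 gained one and 13 changed sign, all 13 in genes that did not pass. Pou3f3 became -0.00045 by edgeR, -0.0019 by DESeq2 and -0.0021 by voom, and ran from -0.057 to 0.044 with single mice left out. That range was -0.032 to 0.079 for Sox5, -0.071 to 0.013 for Nr4a2 and -0.063 to 0.070 for Zfpm2, which became -0.0025 by DESeq2 and -0.0048 by RLE scaling. The causes were not tested. RLE scaling moved the median of all genes by -0.0051. Depth limits the low genes most: Foxp2 had as few as 28 reads in a library, and Emx1, the lowest of the called genes, as few as 62.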
